A study of Mus musculus with 22 samples.

Results

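The step between 2 h and 4 h after injection of tunicamycin (Tm) was measured in total mRNA of mouse liver. The comparison took the 3 libraries of total RNA at 4 h and the 3 at 2 h, which are 6 of the 22 libraries listed, and left the 0 h libraries out of the contrast. Loci were kept where the authors' table gave a complete estimate in all 6 libraries. This was the case for 39850 of 39897 loci, of which 21379 had at least 1 fragment and 12265 had enough fragments to be tested.

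The livers came from C57BL/6 males aged 5 weeks that received 0.1 mg/kg Tm intraperitoneally at 8 am. Mice of the 2 h group were culled at 10 am and those of the 4 h group at noon, so both groups carried the same treatment and differed in time after injection and in time of day, which cannot be told apart here. The 0 h mice, culled at 9 am, are called controls in the methods but carry the tunicamycin label, and the methods do not say whether they were injected, while the study's outline of the experiment lists 0 h among the times after injection. They serve below only as a reference level. Each group had 3 libraries, and the methods give 3 mice per time point. The study also sequenced heavy polysomal RNA, from the gradient fractions with more than 3 ribosomes per mRNA. Its 10 h libraries were not used here.

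Tm blocks N-linked glycosylation, so that newly made glycoproteins misfold in the endoplasmic reticulum (ER). The unfolded protein response that follows has a fast translational arm, in which the kinase PERK phosphorylates eIF2α and lowers translation initiation. It also has a transcriptional arm driven by IRE1 with XBP1, by ATF6 and by ATF4, which acts through new mRNA and therefore shows in total mRNA. The liver secretes many proteins, a large number of them glycoproteins, and targets of the response include ER chaperones, ER-associated degradation factors and amino acid metabolism genes.

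The loci carry numbers of the authors' assembly and no gene names. None of the 39897 numbers matched a gene table used here, so ER stress genes, liver markers and markers of other cell types in liver could not be looked up, and the tissue label was not checked against its markers. The changes are therefore described by level, size and direction, with 4 loci given by number, chosen among called loci that averaged at least 50 fragments and did not overlap between the groups. In a whole liver, fewer cells of a type and less RNA per cell cannot be told apart.

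Every 4 h library was somewhat deeper than every 2 h library. The 2 h libraries held 9788578, 10597584 and 10909529 counted fragments from the lowest to the highest, and the 4 h libraries 11636552, 12027031 and 12377392. Over the 12265 loci tested, between 8904619 and 12126585 fragments per library remained. Libraries of the same group resembled each other more than a 2 h library resembled a 4 h library. Across the loci tested, Pearson's r of log2(CPM + 1), where CPM is a fragment count per 1000000 fragments of the library after TMM scaling at 2 h and 4 h and without it at 0 h, was 0.983 to 0.988 between 2 h libraries, 0.988 to 0.992 between 4 h libraries and 0.954 to 0.970 between a 2 h and a 4 h library. Between a 0 h and a 2 h library it was 0.980 to 0.986, which overlaps the range within the 2 h group. The first principal component held 64.6% of the variance and put the 2 h libraries at -35.3, -25.4 and -23.1 and the 4 h libraries at 25.2, 26.6 and 32.0. The 2 h livers were the more scattered group, with a median SD of log2 CPM per locus of 0.173, against 0.136 at 4 h and 0.151 at 0 h.

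Between 2 h and 4 h, 829 loci changed by at least 2-fold at an adjusted p under 0.05 (edgeR quasi-likelihood test, Benjamini-Hochberg adjusted), which is 6.76% of those tested. Of these, 433 rose (3.53%) and 396 fell (3.23%). The near balance of rises and falls depended on the processing. With upper-quartile scaling, 351 loci rose and 542 fell, and with limma on log2(FPKM + 1), where FPKM is the fragment count scaled to locus length and library size, 277 rose and 132 fell. Under either of these settings, no locus called in both fits changed direction. The median log2 change over all loci tested was -0.01 (-0.09 with upper-quartile scaling), with a 5th percentile of -0.91 and a 95th of 0.88.

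**Figure D1:**
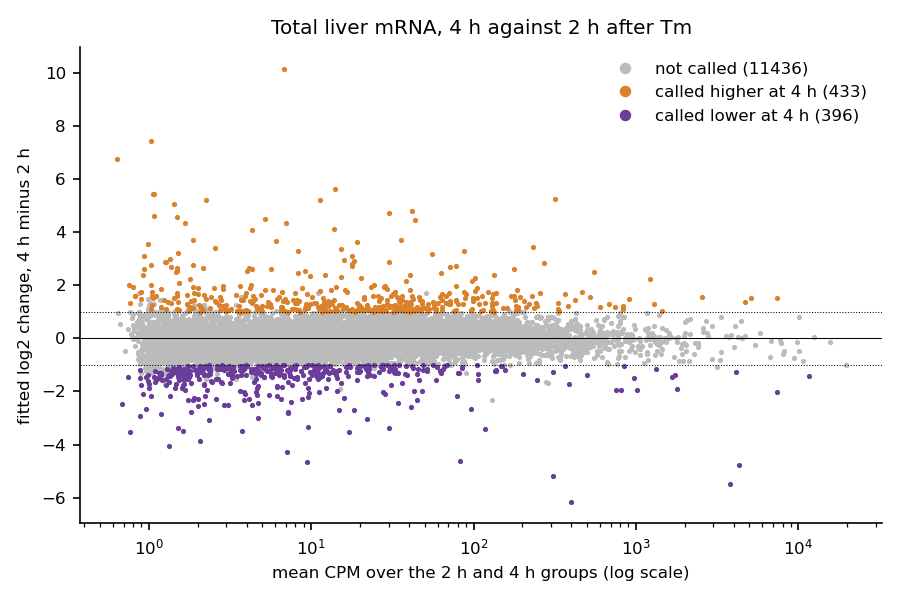
Each point is 1 of 12265 loci, placed by its mean CPM over the 2 h and 4 h groups (log scale) and its fitted log2 change from 2 h to 4 h, with dotted lines at 2-fold. The 433 loci called higher (orange) and the 396 called lower (purple) spread over the whole range of levels, and the largest single value, at log2 10.16, belongs to a locus without fragments at 2 h and is not a measured fold.

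Most changes were moderate in size. The median change was 2.56-fold among the loci that rose and 2.53-fold among those that fell. At least 4-fold changes were seen in 78 rising and 67 falling loci, and at least 8-fold changes in 34 and 19, also with the loci without fragments at 2 h set to their lower bound. Without a minimum fold, 2993 loci (24.4% of those tested) passed the adjusted p, 1624 higher and 1369 lower, and 1075 of them changed by less than 1.5-fold. The 3 libraries of 1 time lay entirely above those of the other at 5209 loci (42.5% of those tested), and this held for 425 of the 433 loci that rose and 387 of the 396 that fell. The loci that fell were counted less deeply, with a median of 62.5 fragments per library, against 206 for those that rose and 193 for all loci tested. A further 113 loci passed 2-fold without passing the adjusted p, and their median count was 17 fragments.

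The largest gain in CPM among the loci kept was at locus XLOC_017764. Its libraries held 3057, 3835 and 4618 CPM at 2 h and 9916, 11351 and 11496 CPM at 4 h, after 1185, 1616 and 1836 CPM at 0 h. The 3 times did not overlap, and every library at 4 h was more than double any library at 2 h. The mean rose from 3837 ± 781 to 10921 ± 873 CPM (SD, n = 3), a log2 change of 1.51 with a standard error of 0.16 (adjusted p = 0.000268, edgeR quasi-likelihood test, Benjamini-Hochberg adjusted). Leaving out 1 library at a time gave 1.37 to 1.66 on the log2 scale. In the authors' means of heavy polysomal RNA, whose scaled counts are on a different scale from CPM, this locus went from 43544 at 2 h to 78062 at 4 h, a log2 change of 0.84.

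The largest rise by fitted fold was at locus XLOC_022075, which was barely detected before 4 h. It had 1 fragment in each 0 h library and 0 in each 2 h library, and then 134, 141 and 209 fragments at 4 h. Without fragments at 2 h, only a lower bound of its fold is known, and this bound was not ranked against the measured rises. Groups were fully apart, and the rise was present in all 3 livers at 4 h. The level at 4 h was 13.7 ± 2.87 CPM (SD, n = 3), at least 125-fold higher than the 0.109 CPM that a floor of 3 fragments over the whole 2 h group allows (adjusted p = 4.82e-05, edgeR quasi-likelihood test, Benjamini-Hochberg adjusted). This RNA was also found in heavy polysomes, where the 4 h libraries held 3.90, 3.99 and 4.98 FPKM and the authors' scaled mean went from 0.331 at 2 h to 105 at 4 h. Altogether 3 loci that rose had no fragment at 2 h. The other two, also singled out after their values were seen, were at least 18.9-fold and at least 11.6-fold higher at 4 h by the same floor and had no fragment at 0 h either. No locus that fell was without fragments at 4 h.

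The largest loss in CPM among the loci kept was at locus XLOC_032700. It held 11213, 17011 and 22331 CPM at 2 h and 6032, 6282 and 6514 CPM at 4 h, with 8465, 12682 and 13536 CPM at 0 h. The 4 h libraries lay close together below every earlier library, while those at 2 h differed widely. The mean fell from 16852 ± 5561 to 6276 ± 241 CPM (SD, n = 3), a log2 change of -1.42 with a standard error of 0.21 (adjusted p = 0.00152, edgeR quasi-likelihood test, Benjamini-Hochberg adjusted), and leaving out 1 library at a time gave -1.65 to -1.17. In the polysomal means its log2 change was -1.06.

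The largest fall by fold, at locus XLOC_023236, started from levels that differed strongly between livers. It held 133, 930 and 1277 CPM at 2 h and 49.3, 161 and 564 CPM at 0 h, but 7.50, 9.75 and 15.6 CPM at 4 h. All livers at 4 h were low, and none overlapped with an earlier liver. The mean went from 780 ± 587 to 10.95 ± 4.19 CPM (SD, n = 3), a log2 change of -6.15 with a standard error of 0.75 (adjusted p = 0.00055, edgeR quasi-likelihood test, Benjamini-Hochberg adjusted). Leaving out 1 library at a time moved this log2 change between -6.66 and -5.60. In the polysomal means the log2 change was -6.25.

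**Figure D2:**
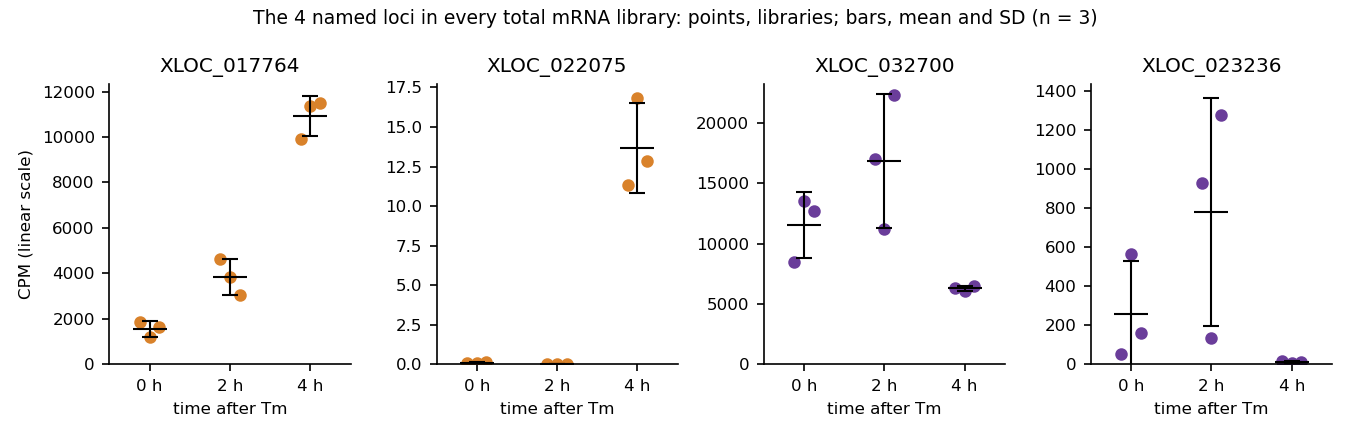
CPM of the 4 loci in each total mRNA library at 0 h, 2 h and 4 h (points), with the mean and SD of 3 libraries (bars, lower ends stop at the axis), on linear axes that differ between panels. In every panel the 4 h libraries lie apart from the 2 h libraries. On these linear axes the falling loci (purple) lie close together at 4 h after a wide spread at 2 h. Relative to its low level, XLOC_023236 still varied at 4 h, from 7.50 to 15.6 CPM.

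The 25 largest rises and the 25 largest falls were taken among loci with at least 50 fragments per library on average and no overlap between the groups. The rises (log2 changes of 2.71 and above) went from a median of 3.67 CPM at 2 h to 35.4 CPM at 4 h. The falls (log2 changes from -6.15 to -2.17) went from a median of 39.5 to 5.30 CPM. Under a common minimum mean count, large rises have to start low and large falls high, so these levels only describe the selection. At the abundant end, 89 loci that rose held at least 100 CPM at 4 h, and 39 that fell held at least 100 CPM at 2 h.

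The called loci held a visible share of the fragments. Shares were taken over the loci with a complete estimate in all 9 libraries of total mRNA at 0 h, 2 h and 4 h. The 433 loci that rose held 2.07 to 2.77% of a library's fragments at 2 h and 6.62 to 7.44% at 4 h, with 1.61 to 1.80% at 0 h. The 396 loci that fell held 5.74 to 9.60% at 2 h and 2.01 to 2.36% at 4 h, with 4.20 to 6.63% at 0 h. These shares follow from how the loci were chosen and describe the size of the change without testing it. Single loci carried a part of it. Without XLOC_017764, the rising loci held 1.79 to 2.32% at 2 h and 5.63 to 6.28% at 4 h. Without XLOC_032700, the falling loci held 4.59 to 7.51% at 2 h and 1.40 to 1.73% at 4 h. Among the same complete loci, the most abundant ones of each library also held less at 4 h, with no overlap between the groups. The 100 most abundant held 39.6 ± 2.26% of fragments at 2 h and 35.4 ± 0.457% at 4 h (SD, n = 3, two-sided exact permutation p = 0.1). The 10 most abundant held 13.8 ± 1.54% and 10.8 ± 0.267% (two-sided exact permutation p = 0.1). For 3 livers against 3, 0.1 is the smallest p such a test allows. These shares leave out some of the most abundant loci, which the authors' software skipped in some libraries and not in others. With all listed loci, the 10 most abundant held 18.0, 18.4 and 24.0% at 2 h and 11.01, 11.4 and 16.9% at 4 h. The 100 most abundant then held 42.2, 44.3 and 49.2% at 2 h and 35.5, 36.4 and 40.6% at 4 h. The groups did not overlap there either, but since a skipped locus is listed at 0, these values also move with which loci were skipped.

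**Figure D3:**
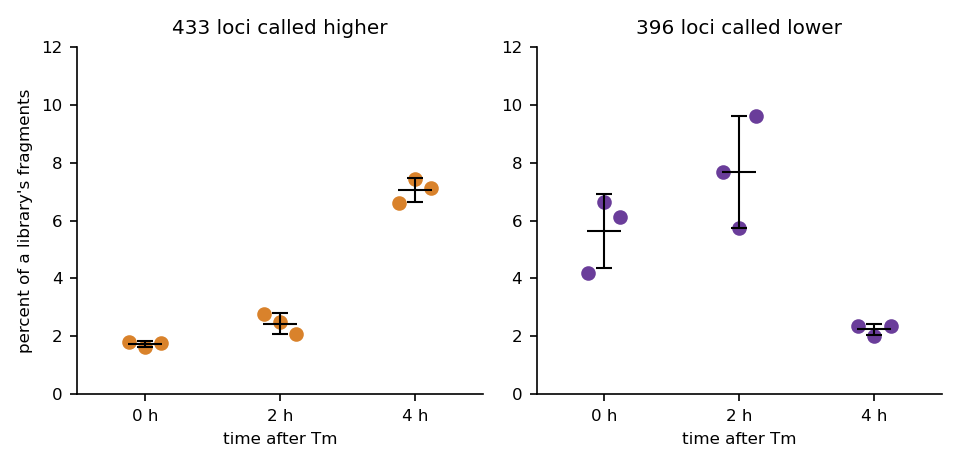
Percent of a library's fragments in the 433 loci called higher (left, orange) and the 396 called lower (right, purple) at 0 h, 2 h and 4 h, with 3 libraries per time (points) and their mean and SD (bars). The rising loci pass from at most 2.77% at 2 h to at least 6.62% at 4 h, and the falling loci from at least 5.74% to at most 2.36%.

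The 0 h libraries give a reference level for these loci. In a fit of all 9 libraries at 0 h, 2 h and 4 h, given as values only since the comparisons share libraries, the loci that rose had a median log2 change of 0.13 from 0 h to 2 h and of 1.55 from 0 h to 4 h. The loci that fell had medians of 0.25 and -1.13. Over all loci tested both medians were near zero, at 0.01 and -0.01. Thus 275 of the 433 rising loci (63.5%) and 307 of the 396 falling loci (77.5%) were within 1.5-fold of their 0 h level at 2 h, against 93.3% of all loci tested.

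The order of the 3 group means differed between the lists. Among the loci that rose, the 0 h mean was below both later means at 259 loci, between them at 171 and above both at 3. Among the loci that fell it was between them at 298 and above both at 98, and it was below both at 0 loci. Over all 12265 loci tested it was below both at 3922, between them at 4420 and above both at 3923. In the falling list, then, 298 loci had a 2 h mean above the 0 h mean and a 4 h mean below it, as XLOC_032700 and XLOC_023236 did. The 2 h values helped to choose both lists, so their position relative to 0 h is a description. Median levels at 0 h, 2 h and 4 h were 7.30, 8.73 and 28.0 CPM for the rising loci and 7.72, 9.02 and 3.36 CPM for the falling loci. For all loci tested they were 17.4, 17.9 and 18.6 CPM.

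Loci of low abundance at 0 h were called more often. Among tested loci with at least 10 fragments on average at 0 h, sorted by their 0 h level and divided into 10 classes of equal size, the share called was 10.3% in the least abundant class, 5.95% in the fifth and 4.13% in the most abundant, and it lay between 3.63% and 4.13% in the upper 4 classes. The most abundant class had 20 loci that rose and 30 that fell. The 150 tested loci below 10 fragments at 0 h had passed the filter through their counts at 2 h or 4 h, and 55 of them rose and 2 fell. With these loci included, the least abundant class had 13.9% called, but 8.24% without library 1 of the 4 h group and 8.65% without library 2 of the 2 h group. The power to call a change also differs with abundance, and its part in these shares was not tested.

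**Figure D4:**
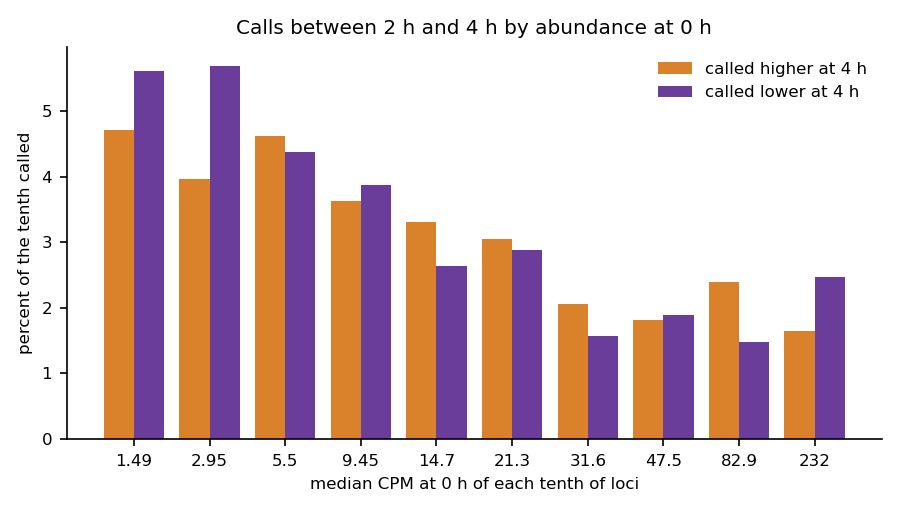
Percent of loci called higher (orange) and lower (purple) at 4 h in 10 equal classes of the tested loci with at least 10 fragments at 0 h, labelled by their median CPM at 0 h. Both directions decline from the low classes on the left, with 57 higher and 68 lower of 1211 loci, towards the abundant classes on the right, with 20 and 30 of 1212.

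The loci that fell also varied more than other loci among the 0 h livers, which had no part in the contrast. The coefficient of variation over the 3 libraries at 0 h had a median of 22.6% at the loci that fell (n = 394 with at least 10 fragments), 16.2% at those that rose (n = 378) and 11.4% over all loci (n = 12115). A lower count gives a larger coefficient, so the comparison was repeated within the 10 classes of 0 h abundance. There the median of the falling loci was above that of all loci in 10 of 10 classes, from 29.8% against 29.3% in the least abundant class to 22.8% against 7.09% in the most abundant. The rising loci were above all loci in 9 of 10, but in the 5 less abundant classes, which held most of them, both medians were close, such as 22.1% against 22.3% in the second class and 11.2% against 10.9% in the fifth. The most abundant class had 14.4% for the rising loci. With at least 50 fragments at 0 h, the medians were 19.5%, 13.7% and 9.73%.

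Heavy polysomal RNA gave a second readout of the same step. The methods list 15 mice with 3 per time point, so both kinds of RNA appear to come from the same mice. Agreement between them is then no replication in other animals. The change from 2 h to 4 h was taken from group means alone, because the table averages 3 read groups at 2 h, and likewise at 0 h, where 2 libraries are listed, so no test was made. A value was available for 302 rising and 234 falling loci whose scaled fragments averaged at least 50 over the total and polysomal groups at 0 h, 2 h and 4 h. The polysomal mean was also higher at 4 h for 301 of the 302, and lower for 234 of the 234, while 52.1% of all 9379 loci with a value were higher. The median log2 change in polysomal RNA was 1.27 for the rising loci and -1.18 for the falling loci, beside 1.32 and -1.25 in the total means. Over all loci it was 0.02 with an SD of 0.563.

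Changes of at least 2-fold in the same direction were seen in polysomal RNA at 239 rising and 162 falling loci, and 5.99% of all loci with a value changed that much in either direction. The polysomal and the total change differed by 2-fold or more at 1 called locus (0.187%) and at 0.096% of all loci. Spearman's rho between both changes was 0.938 over the called loci and 0.810 over all 9379. Both are correlations over loci and not over livers, and the sources do not say which polysomal library came from which liver. The 1 locus that went the other way was singled out after its values were seen, with 2.51, 2.75 and 4.57 CPM at 2 h and 5.65, 5.73 and 8.56 CPM at 4 h in total mRNA. Its log2 change was 1.01 (adjusted p = 0.0254, edgeR quasi-likelihood test, Benjamini-Hochberg adjusted), and its polysomal mean went from 68.3 to 60.7.

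**Figure D5:**
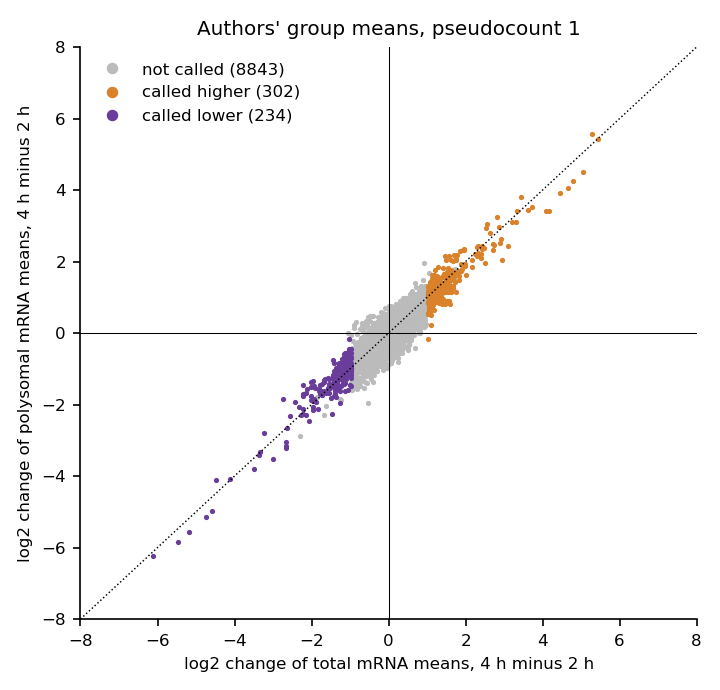
Log2 change from 2 h to 4 h of the authors' group means in total mRNA (horizontal) and in heavy polysomal mRNA (vertical) at 9379 loci, with a pseudocount of 1 and a dotted line of equal change. The 302 rising loci (orange) and 234 falling loci (purple) lie along this line, with 1 rising locus below 0 on the vertical axis.

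Polysome loading at 0 h and length are given as medians, without a test. The medians of both lists lay within the quartiles of all loci. Those quartiles describe single loci, so this cannot show whether a list differs from the rest. The log2 ratio of polysomal over total means at 0 h had a median of -0.12 for the rising loci and 0.07 for the falling loci. Over all loci it was -0.04 (quartiles -0.41 and 0.36). The same mismatch of read groups and listed libraries lies behind this polysomal mean. When 1 library was left out of the calls, the median ranged from -0.20 to -0.10 for the rising loci. For the falling loci it ranged from -0.01 to 0.19, so its sign was not stable. Relative length, taken from the quotient of CPM and FPKM and scaled to 1 for the median locus, had a median of 0.998 for the rising loci (quartiles 0.597 and 1.58) and of 1.10 for the falling loci (0.623 and 1.76), while the quartiles over all loci were 0.586 and 1.60.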

How the data were processed

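Single-end reads of 50 bases from stranded mRNA libraries were aligned by the authors with TopHat 2.0.13 to a GRCm38 transcriptome and quantified with Cufflinks 2.2.1; the annotation release is not given in the sources used here. The authors deposited, per locus and read group, raw fragment counts and FPKM with corrections for fragment bias and multi-mapped reads. They also deposited group means, a signal of counts scaled between libraries. Of 81 read groups 69 were not used, and of 27 means 21. Read groups carry numbers 0 to 2, which name libraries within a group only.

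The 47 loci without a complete estimate were left out. Of these, 37 were skipped by the authors' software for too many fragments in at least 1 library and listed at 0. Such loci could not be chosen as the largest gain or loss in CPM. edgeR 4.0.16 (R 4.3.3) was applied to the counts with TMM scaling, filterByExpr and the quasi-likelihood test, adjusted by Benjamini-Hochberg over 12265 loci, calling an adjusted p under 0.05 and at least 2-fold. The biological coefficient of variation was 0.137. CPM at 0 h used library totals without TMM factors. On simulated counts for this comparison (12099 loci tested), 90 of 100 loci changed 2.5-fold and 99 of 100 changed 4-fold were called, with 3 unchanged loci called. The changed loci were drawn only from loci averaging above 2 CPM, so recovery at lower levels was not tested. Floors cover counting error only.

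Alternatives were limma 3.58.1, DESeq2 1.42.0, other filters and scalings, and leaving out each library. The 4 loci given by number are the largest rise and fall by fitted fold and by CPM. They were taken among the called loci that averaged 50 fragments or more and showed no overlap between the groups. The lists and rules were chosen with earlier results of these data known.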

Additional observations from a re-analysis of the deposited data

How the results depend on the processing

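In place of 829 loci, 409 were called with limma on log2(FPKM + 1) (67.7% of them higher), 538 with glmTreat against 1.5-fold and 2993 with no minimum fold. The share higher was 39.3% with upper-quartile scaling. Leaving out 1 library gave 691 (without library 2 of the 2 h group) to 977 calls (without library 1 of that group), 46.2 to 56.5% of them higher. With a replicate block 808 loci were called. Each mouse was culled at 1 time, so no liver was in both groups. Deviations of same-numbered libraries correlated at -0.03, 0.06 and 0.02, and those of other pairs at -0.065 to 0.044. These values do not decide whether equal numbers mark anything shared.

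With no minimum fold, the share of fragments rose by 10.2 percentage points in the rising loci and changed by -12.1 points in the falling ones, beside 4.62 and -5.44. It was 3.88 without the largest rising locus, an alternative chosen after seeing the data. Leaving out 1 library gave 4.46 to 5.24 and -7.13 to -5.37. Same direction in the polysomal means held for 99.8% of called loci, 98.7% at a minimum mean of 10, 100% at 200, and 99.2 to 100% without 1 library. The ratio of the falling loci's median variation at 0 h to that of all loci was 1.98, 1.81 on the log2 scale and 1.79 to 2.08 without 1 library. Of 10 classes by 0 h abundance, the least abundant had 13.9% called, 11.1% with 4 classes, 10.3% with at least 10 fragments at 0 h (chosen after seeing the data) and 8.24 to 14.1% without 1 library. The most abundant had 4.07%, and 3.91 to 5.54% without 1 library. XLOC_022075 could not be fitted with at least 10 counts required in every library. In the 15 refits by other tools, filters and scalings, with the replicate block or without 1 library, the other 3 loci given by number kept their direction and call, as XLOC_022075 did in the remaining 14, and glmTreat was not read for single loci. By contrast, the median log2 polysomal ratio at 0 h ranged from -0.01 to 0.19 for the falling loci and from -0.20 to -0.10 for the rising loci without 1 library. Precision is limited by 3 livers per group and, at low counts, by depth.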
